A study of Homo sapiens with 6 samples.

Results

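The accessible chromatin of wild-type ARP1 cells was described from the 3 wild-type libraries of an ATAC-seq series of 6. ARP1 is a human multiple myeloma cell line, and in ATAC-seq the transposase Tn5 cuts and tags DNA that is not packed away, so that a pile of read ends marks an open region. The 3 libraries used here are titled KDM6A wild type and numbered as replicates 1 to 3; the other 3 carry a knockout of KDM6A, a histone demethylase, and were not used. The labels name no treatment and do not say whether the replicates came from separate cultures, so the spreads below are those between libraries and may be technical. Peaks of the 3 lists were merged where they shared 1 bp on chromosomes 1 to 22 and X, which gave 70886 regions, and the 39888 regions called in 3 of 3 lists (56.3%) were kept. Each was ranked by the mean, over the lists, of its percentile in the list by −log10 p-value.

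Plasma cells are the antibody-secreting end stage of the B lineage, and myeloma is their malignant form. IRF4, PRDM1 and XBP1 encode the transcription factors that hold this state, SDC1, CD38 and TNFRSF17 encode surface proteins used to recognise it, and genes such as PAX5 and MS4A1 belong to the B cell stage that precedes it. A cell that secretes antibody relies on the unfolded protein response, in which stress in the endoplasmic reticulum raises chaperones and folding enzymes through short promoter elements built around the letters CCAAT. Open regions fall into promoters, which many cell types share, and distal regions, which differ more between cell types.

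The 3 libraries were alike in depth. The deposited lists hold 54444, 54471 and 56049 peaks for replicates 1, 2 and 3, of which 35 to 42 lay on the mitochondrial or Y chromosome and were left out. The fold values in the lists, which are the authors' own, rise in whole steps, and the step gives the number of fragments expected by chance at a position: 3.68, 3.11 and 3.77. The weakest peak kept in a list stood on 11 or 12 overlapping fragments, and the median peak on 27 to 29. Replicate 2 had the lowest background, so the same pile of fragments gives a higher fold there. Percentiles of the shared regions correlated at a Spearman rho of 0.911 to 0.918 between pairs of libraries, a description over regions of the same genome.

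A gene start is here a start listed for the gene by RefSeq, or the end of the gene record where the start is not listed, and a region is at a start when it lies within 1 kb of it. Sharing between lists went with strength. Regions found in 3 lists had a median fold of 8.31, against 4.25 for the 10267 regions found in 2 lists and 3.65 for the 20731 found in 1. Of the regions in 3 lists 27.97% lay within 1 kb of the start of a protein-coding gene, compared with 4.92% of those in 2 lists and 3.20% of those in 1. A region enters a list by passing the peak threshold, so the lower fold of regions in fewer lists is part of how they were chosen.

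Strength also sorted the 39888 regions by place. In the weakest 10% 6.54% lay at a gene start, and in the strongest 10% 68.2%, with a rise at each step between them. Over the same range the share more than 50 kb from any coding start fell from 52.9% to 17.6%, and the median width grew from 843 to 2069 bp. The median SD between libraries was 9.40 percentile points in the weakest 10% and 0.837 in the strongest, a difference that the ranking itself favours, since a mean percentile near the top leaves little room for spread. Some start regions had listed starts of different genes on both strands within 1 kb. They made up 1.15% of the start regions in the weakest 10% and 13.2% in the strongest. Whether such genes point away from each other was not checked, and wider regions reach more starts. In all, 11156 regions were at starts, 11506 elsewhere inside a coding gene record and 17226 outside such records.

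**Figure D1:**
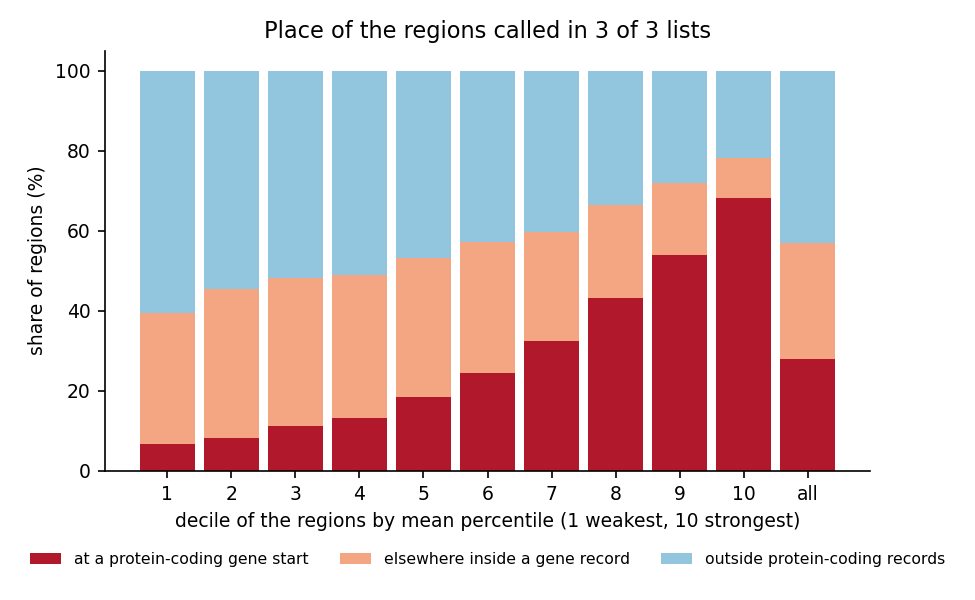
Share of regions (y axis, percent) at a protein-coding gene start, elsewhere inside a gene record or outside such records, for each decile of the 39888 regions by mean percentile and for all regions together (x axis). The share at starts climbs from 6.54% in the weakest 10% to 68.2% in the strongest, while it is 27.97% over all regions.

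The markers of a myeloma plasma cell were open in every library. At SDC1, which encodes syndecan-1 (CD138), the start region chr2:20221604-20226476 reached folds of 26.9, 30.9 and 27.2 in replicates 1, 2 and 3, a mean of 28.3 ± 2.2 (SD, n = 3). At IRF4, the region chr6:389269-395072 reached 20.9, 28.7 and 25.6, a mean of 25.1 ± 3.90. At CD38, an ectoenzyme and antibody target, chr4:15777707-15779748 reached 19.0, 23.8 and 20.7, a mean of 21.2 ± 2.44. All 3 were in the strongest 10% of regions, and in all 3 replicate 1 was the lowest and replicate 2 the highest library. TNFRSF17, which encodes the receptor BCMA, had a weaker region, chr16:11964173-11966446, with folds of 8.33, 10.9 and 13.6. Its mean of 11.0 ± 2.65 lay below 14.8, the median over genes with a called start, and here replicate 3 was the highest.

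The sequences before 3 of these starts are shown with that of JCHAIN, the gene of the antibody joining chain, because they differ in base composition. Each is the 250 bases before the start from RefSeq on GRCh38.p14, written 5′ to 3′ on the gene's own strand. Capitals mark the GC box GGGCGG and the CCAAT box CCAAT on either strand, so CCGCCC and ATTGG are marked too. IRF4 is at chr6:391502-391751 on the plus strand, SDC1 at chr2:20225476-20225725 on the minus strand, CD38 at chr4:15778078-15778327 on the plus strand and JCHAIN at chr4:70666509-70666758 on the minus strand.
IRF4: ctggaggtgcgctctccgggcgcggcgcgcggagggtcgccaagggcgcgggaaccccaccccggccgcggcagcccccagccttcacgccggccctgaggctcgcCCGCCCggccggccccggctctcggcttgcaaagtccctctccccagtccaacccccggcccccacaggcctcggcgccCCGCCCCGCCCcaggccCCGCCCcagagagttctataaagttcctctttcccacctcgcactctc
SDC1: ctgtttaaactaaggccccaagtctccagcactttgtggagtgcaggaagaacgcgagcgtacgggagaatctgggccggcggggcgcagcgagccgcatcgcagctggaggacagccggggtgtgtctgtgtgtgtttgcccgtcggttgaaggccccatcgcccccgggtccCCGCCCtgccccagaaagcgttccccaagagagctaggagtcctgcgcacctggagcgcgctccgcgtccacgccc
CD38: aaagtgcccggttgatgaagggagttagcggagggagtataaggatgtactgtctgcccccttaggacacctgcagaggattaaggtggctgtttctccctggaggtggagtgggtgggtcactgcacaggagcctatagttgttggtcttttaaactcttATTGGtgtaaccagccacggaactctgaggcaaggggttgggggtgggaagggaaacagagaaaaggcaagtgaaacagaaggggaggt
JCHAIN: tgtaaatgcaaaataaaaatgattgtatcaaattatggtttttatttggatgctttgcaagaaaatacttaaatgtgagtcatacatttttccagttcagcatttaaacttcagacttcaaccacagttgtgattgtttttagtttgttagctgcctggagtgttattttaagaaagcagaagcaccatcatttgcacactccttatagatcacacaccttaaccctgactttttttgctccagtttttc
IRF4 has 76% G and C and 4 GC boxes, SDC1 66.4% and 1 GC box, and CD38 52.4% and 1 CCAAT box. JCHAIN has 32.8% and no match to either, and the region called near its start was weak, with folds of 5.98, 6.32 and 6.92 and its summit 1424 bases before the start. JCHAIN was thus called in every library but stood at the 49.8th percentile.

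Other plasma cell factors and markers differed in the strength of their starts. PRDM1, the repressor that ends the B cell program, had folds of 8.97, 8.26 and 7.96 at its called start, a mean of 8.40 ± 0.52. The strongest region near PRDM1 lay beyond the gene's far end, at chr6:106140657-106147717, with folds of 34.6, 40.1 and 38.3 and a mean of 37.7 ± 2.81. The ranges of the 2 regions do not overlap, and the distal one is in the strongest 10%. XBP1, the transcription factor of the unfolded protein response, reached 14.3, 17.7 and 13.2 at its start. MYC, a growth regulator often activated in myeloma, reached 20.3, 18.2 and 16.6 in replicates 1 to 3, so that replicate 1 was the highest there. MZB1, an endoplasmic reticulum protein of antibody-secreting cells, averaged 22.8 ± 5.31, and SLAMF7, another antibody target, 5.51 ± 1.15.

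The fold in the lists is taken against 1 background value for each library, so it does not take the neighbourhood of a gene into account. The fold of each gene was also divided by the median fold of the other start regions within 5 Mb, here called relative fold. It was 1.47 at IRF4, 1.48 at CD38 and 1.5 at XBP1, but 1.01 at SDC1, whose neighbours had a median fold of 28.1. It was 0.47 at PRDM1, 0.39 at JCHAIN, 0.88 at TNFRSF17 and 0.89 at MYC, against a median of 1.07 over called genes. The level of SDC1 is thus shared by its neighbours, and SDC1 lies in a peak-rich bin of chromosome 2 (20 to 21 Mb, 49 regions, described below). DNA copy number was not measured, and its part in these levels was not tested.

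**Figure D2:**
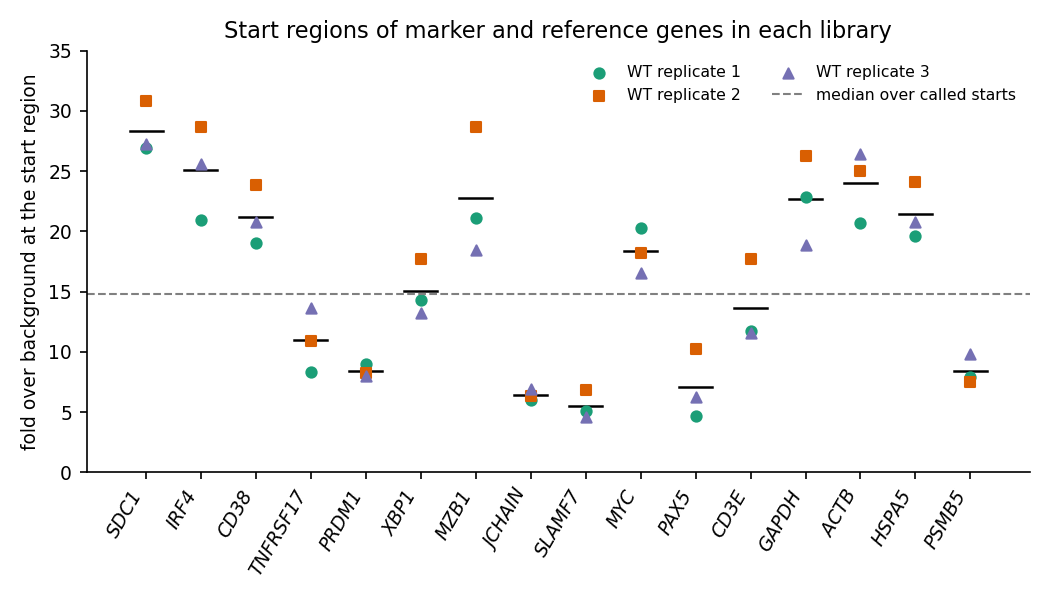
Fold over background at the start region (y axis) of 16 genes (x axis) in wild-type replicates 1 (circles), 2 (squares) and 3 (triangles), with the mean as a bar. The region of CD3E lay at the far end of its gene and not at its start. The dashed line is the median over called genes, 14.8; SDC1, IRF4 and CD38 lie above it in all 3 libraries, and PRDM1, JCHAIN and SLAMF7 below it.

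Starts were next counted over whole gene lists, against all protein-coding genes as background. Of 19974 genes, 12060 had a start region in 3 of 3 lists (60.4%) and 3239 had one in the strongest 10% of regions (16.2%). Of 20 genes of plasma cell and myeloma identity 18 were called, 7 of them in the strongest 10%; 8 of the 18 had a fold above 14.8, the median over called genes. CD27, a receptor of memory and plasma cells, and TNFRSF13B had no peak in any list. The leading members were SEC11C, a signal peptidase subunit, at 39.3 ± 4.43, SDC1, and ITGA4, an integrin subunit used for homing to marrow, at 28.3 ± 4.73. Of 25 regulators of the plasma cell program 24 were called and 4 were in the strongest 10%, a share near the background for that class. ZBTB20, a repressor of the B lineage, led at 45.2 ± 2.37, followed by BHLHE40 at 33.4 ± 2.99 and IRF4.

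Most genes of the B cell stage had no called start. Of 18 such genes 7 were called (38.9%, beside 60.4% of all genes) and 0 were in the strongest 10%, beside 16.2%. BCL6, the germinal centre repressor, was the strongest at 18.9 ± 2.38, with CR2 at 10.6 ± 0.95. CIITA, the activator of HLA class II genes, is counted through a region of 9.63 ± 2.40 at the far end of its record and not at its start. BACH2 followed at 8.39 ± 0.77, BLNK at 7.39 ± 1.04 and EBF1 at 6.08 ± 0.63. PAX5, which fixes B cell identity, reached 4.70, 10.2 and 6.29, a mean of 7.06 ± 2.84 in which replicate 2 stood well above the others. MS4A1, CD79A, CD79B and CD22 were among the 11 that had no peak at a start in any library.

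Few markers of myeloid, erythroid and epithelial cells had a called start, beside 60.4% of all genes. Of 14 myeloid genes 1 was called and 10 had no peak in any list; CD14, CSF1R, LYZ and MPO were among the 10. The call was S100A8, at 5.95 ± 0.95, by the end of a long gene record rather than by a listed start. Of 10 erythroid and megakaryocyte genes 1 was called, GP9 at 5.21 ± 1.48, and GATA1, KLF1 and HBB had no peak. Of 14 epithelial and liver genes 1 was called, ESRP1, a splicing factor, at 11.3 ± 1.88, and EPCAM, CDH1 and ALB had none. The myeloid genes CEBPA, S100A9 and CD68, the globin gene HBA1 and the keratin genes KRT8 and KRT18 were called in part of the lists.

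Other lists of foreign genes held more open starts, though in each the share called was below the 60.4% of all genes. Of 18 T and natural killer cell genes 8 were called (44.4%). They were led by NCAM1 (CD56) at 16.4 ± 1.11, GATA3 at 14.9 ± 2.03 and CD3E at 13.7 ± 3.53. The region of CD3E, chr11:118316030-118317317, lay at the higher of the record's 2 ends, which is the far end of this gene and not its start, and CD3D, CD2, LCK and ZAP70 had no peak. LEF1 at 12.98 ± 1.89, CD8A at 7.97 ± 1.76, BCL11B at 7.502 ± 0.80, TCF7 at 5.60 ± 1.47 and CD4 at 3.78 ± 0.39 were the other calls, and the region of CD4 also lay at the far end of its gene. Of 12 stromal and endothelial genes 5 were called (41.7%). LEPR, the leptin receptor, at 30.9 ± 3.62 was the only one in the strongest 10%, beside 16.2% of all genes. PDGFRA stood at 14.5 ± 0.76, ACTA2 at 8.28 ± 1.88, COL1A2 at 6.33 ± 1.28 and COL1A1 at 5.64 ± 2.08, while PECAM1, VWF, CDH5 and CXCL12 had no peak. Of 12 neuronal genes 6 were called (50%). They were led by SYT1 at 21.7 ± 3.61, NEUROG2 at 20.02 ± 1.53 and SLC17A7 at 15.04 ± 1.51, with GAD1, SYN1 and SNAP25 below 10. An open start is not a measure of transcription, which was not measured here.

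The list of the unfolded protein response and secretion had the highest median fold of the 14 lists, 22.2, beside 14.8 over called genes. All 20 of its genes were called, beside 60.4% of all genes, and 11 were in the strongest 10%, beside 16.2%. PDIA6, a disulfide isomerase, reached 45.5, 66.4 and 61.8, a mean of 57.9 ± 11.0; DNAJB9, a co-chaperone, reached 47.7 ± 4.81 and PDIA4, another isomerase, 46.9 ± 5.34. DNAJC3 at 44.8 ± 9.30, the transcription factor gene CREB3L2 at 41.1 ± 4.76 and EDEM1, which directs misfolded proteins to degradation, at 33.1 ± 5.27 came next. EIF2AK3, which encodes the stress sensor PERK, stood at 31.5 ± 1.02, SEL1L at 27.5 ± 6.17 and HSPA5, which encodes the chaperone BiP, at 21.5 ± 2.30. Relative to neighbouring starts its median was 1.68, beside 1.07 over called genes, and 18 of 20 genes were above 1. SSR1, at 0.91, and ATF6, whose fold was 4.97 ± 1.33 and relative fold 0.35, were the 2 exceptions. PDIA6 lies in a stretch of chromosome 2 with many peaks, described below, whose start regions had a median fold of 30.9. The relative fold of PDIA6 was 2.65, against starts within 5 Mb, which reach beyond that stretch.

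Other groups of broadly used genes were mostly called as well, beside 60.4% of all genes called and 16.2% in the strongest 10%. All 15 housekeeping genes were called and 4 were in the strongest 10%, with TBP at 30.6 ± 2.52 and ACTB at 24.1 ± 2.97; GAPDH stood at 22.7 ± 3.70. Of 31 proteasome subunit genes 29 were called and 6 were in the strongest 10%, led by PSMB1 at 30.6 ± 2.52 (in the region it shares with TBP), PSMA1 at 28.6 ± 2.26 and PSMC4 at 26.4 ± 7.62. PSMB5, which encodes the subunit that bortezomib binds, was among the weaker at 8.43 ± 1.24, PSMA7 was called in 2 lists, and PSMB6 had no peak. Of 20 cell cycle genes 19 were called and 7 were in the strongest 10%, with E2F3 at 37.9 ± 4.19, PCNA, the sliding clamp of replication, at 33.5 ± 1.74 and CDK2 at 29.8 ± 2.26, in a region at the far end of its record. CDKN2C, an inhibitor of CDK4 and CDK6, was the member with no peak.

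Genes by which immune cells recognise a target were called in 14 of 20 cases (70%, beside 60.4% of all genes), CIITA among them through its far end. Of the 20 genes 1 was in the strongest 10%, beside 16.2% of all genes. TAP1, the peptide transporter, led at 22.2 ± 5.28, followed by MICB, a ligand of the receptor NKG2D, at 20.4 ± 4.91 and B2M, the common chain of HLA class I, at 20.2 ± 2.80. HLA-C stood at 19.03 ± 1.199 and HLA-B at 13.2 ± 2.09. CD58, a ligand of CD2, stood at 11.8 ± 0.93, CD48 at 10.3 ± 0.98 and CD274, which encodes PD-L1, at 10.1 ± 2.33. HLA-DRB1 and CD74, which serve class II presentation, had no peak in any list, as did CD86, ULBP1 and PVR, and HLA-DRA was called in 1 list. KDM6A itself, on chromosome X, had a start region with folds of 8.76, 13.6 and 10.7.

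**Figure D3:**
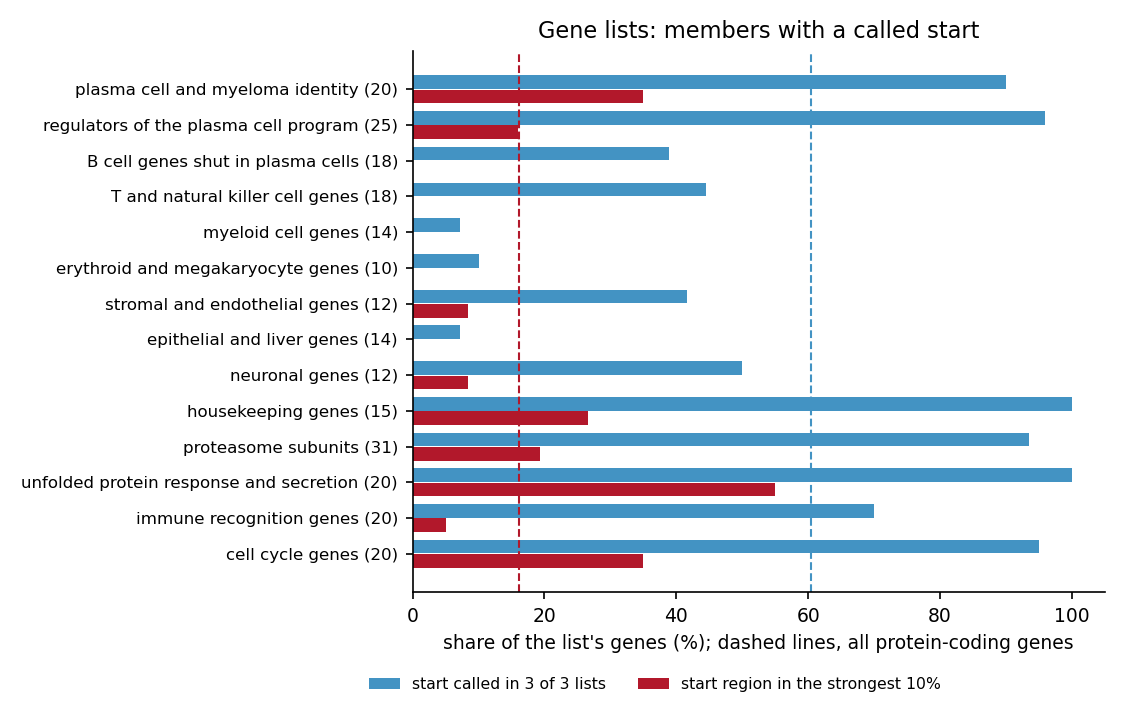
Share of the genes of each list (x axis, percent; number of genes in brackets) with a start called in 3 of 3 lists (blue) and with a start region in the strongest 10% (red). Dashed lines give the same shares over all protein-coding genes, 60.4% and 16.2%; the red bar is longest for the unfolded protein response, and the myeloid, erythroid and epithelial lists have the shortest blue bars.

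The letters before and around the starts were compared with strength for the 15812 genes whose start sequence is in the RefSeq table. Each sequence runs from 250 bases before to 50 bases after the start, both strands were searched, and 1 start was taken for each gene. The CCAAT box, the site of the factor NF-Y, was found in 29.0% of the weakest quintile of called starts (the called starts in 5 groups of equal size by rank) and in 34.7%, 37.2%, 39.9% and 46.6% of the next quintiles. It was in 50.8% of the strongest 10% (95% Wilson interval 47.7% to 53.9%, counting error only), compared with 36.5% of all starts. Starts called in no list held it in 35.6% of cases, above the share in the weakest called quintile. The share in starts called in no list shows how often these 5 letters occur without a called region.

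The other motifs separated called from uncalled starts more than strong from weak ones. The GC box, bound by SP factors, was in 35.4% of starts called in no list, in 65.9% of the weakest called quintile and in 76.3% of the strongest. The ETS letters CCGGAAG were in 3.63% of uncalled starts and in 16.4% to 22.998% of the called quintiles, and the NRF1 letters, GCGC and GCGC with 2 bases between them, in 3.91% and in 13.4% to 18.4%. The TATA letters TATAAA went the other way, with 17.5% of uncalled starts and 4.39% to 5.77% of the called quintiles. Of 6 further motifs, 3 were found in more called than uncalled starts. The CRE letters TGACGTCA were in 1.25% of uncalled starts and in 3.06% to 3.82% of the called quintiles, the YY1 letters AAGATGG in 3.98% and 6.99% to 8.31%, and the E-box CACGTG in 6.16% and 9.13% to 11.9%. The AP-1 letters TGANTCA were in 8.97% of uncalled starts and fell with strength, from 5.36% of the weakest called quintile to 2.45% of the strongest. The IRF letters, GAAA and GAAA with 2 bases between them, were in 3.72% of uncalled starts and 2.35% to 3.42% of the called quintiles. The octamer ATTTGCAT, a site of the factors OCT1 and OCT2, was in 2.18% of uncalled starts and 1.07% to 1.58% of the called quintiles.

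The median G and C content was 65.3% in the weakest called quintile and 65.0% in the strongest, and 55.7% in starts called in no list. Ranked by relative fold, a setting added after the data were seen, the strongest 10% held the CCAAT box in 55.4% of starts.

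**Figure D4:**
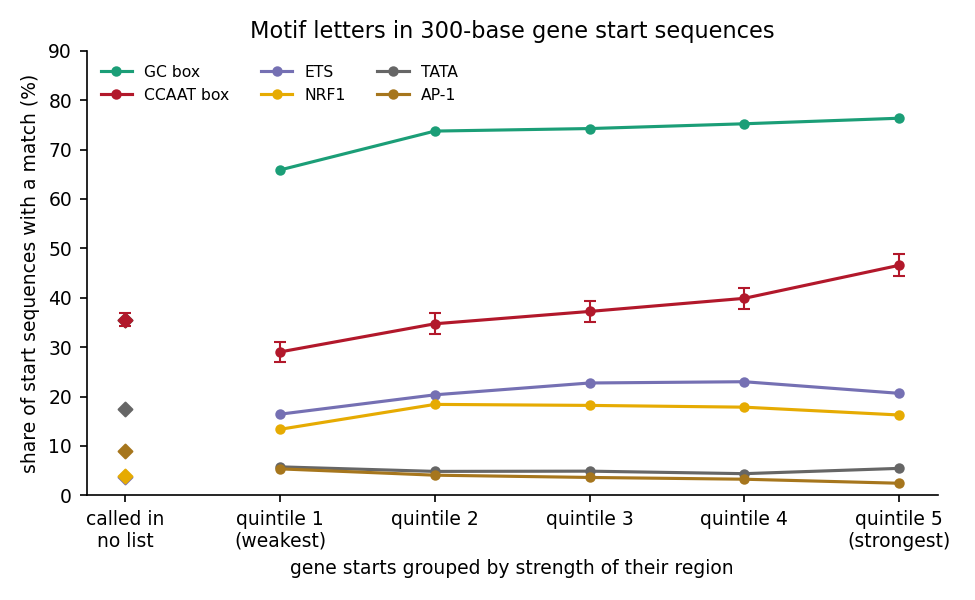
Share of start sequences (y axis, percent) with a match to each motif, for starts called in no list (diamonds) and for quintiles of the called starts from weakest to strongest (lines, x axis). Error bars on the CCAAT box are 95% Wilson intervals; its share rises from 29.0% to 46.6% over the quintiles, while the GC box, ETS and NRF1 letters change most between uncalled and called starts.

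The CCAAT boxes of the strong starts lay mainly before the start. In the strongest 10% 25.6% of sequences had one beginning 51 to 100 bases before it and 18.1% had one 101 to 150 bases before it, against 11.9% and 5.36% in the weakest quintile. In the 50 bases after the start the shares were 2.96% and 1.89%. At least 2 CCAAT boxes were present in 25.7% of the strongest 10% and in 7.09% of the weakest quintile. Summits, the positions of the tallest pile of fragments, also moved with strength. Over 5291 starts with no other start within 2 kb the median summit lay 30 bases before the start, and 69.5 bases before it in the strongest quintile against 13 in the weakest.

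In the unfolded protein response list 16 of 20 start sequences held a CCAAT box, compared with 14 of 26 proteasome genes, 10 of 17 cell cycle genes and 5 of 11 housekeeping genes that have a listed sequence. The fuller stress element, CCAAT and CCACG with 9 bases between them, was searched after the data were seen. It occurred in 20 of 15812 start sequences, and 16 of the 20 genes had a called start, in 14 different regions, beside 9804 called of all 15812. The carriers included HSPA5, HSP90B1, PDIA6 and XBP1 of the list and, outside it, the chaperones CALR and CANX, the oxidase ERO1B, SERP1, FICD, and CRELD2 with its neighbour ALG12. Of the 16 called genes 13 had a fold above the median of called starts, and their median relative fold was 1.66, beside 1.07 over called genes. GLRA2, a glycine receptor gene at 4.27, was the weakest of them. The other called carriers were EIF2A, with the same values as SERP1, and TMEM120A, TRIM5 and ZNF17. The relative folds of TMEM120A, TRIM5 and ZNF17 were 0.99, 0.96 and 1.05, below the 1.07 over called genes. The uncalled carriers were FRG2, FRG2B, FRG2C and NLRP4.

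The sequences before 4 starts of the stress response are shown with that of MSMO1, an enzyme of cholesterol synthesis, which is among the 15 genes with the strongest start regions. They were chosen because each holds at least 2 CCAAT boxes; not all such starts do, and SYVN1 of the same list holds 0 and PDCD10 of the 15 strongest genes 1. The marking is as above.
HSPA5: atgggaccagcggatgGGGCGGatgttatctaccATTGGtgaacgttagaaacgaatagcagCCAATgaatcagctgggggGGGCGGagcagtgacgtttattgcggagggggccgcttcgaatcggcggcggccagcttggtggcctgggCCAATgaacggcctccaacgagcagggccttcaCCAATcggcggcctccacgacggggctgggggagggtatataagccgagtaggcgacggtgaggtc
PDIA6: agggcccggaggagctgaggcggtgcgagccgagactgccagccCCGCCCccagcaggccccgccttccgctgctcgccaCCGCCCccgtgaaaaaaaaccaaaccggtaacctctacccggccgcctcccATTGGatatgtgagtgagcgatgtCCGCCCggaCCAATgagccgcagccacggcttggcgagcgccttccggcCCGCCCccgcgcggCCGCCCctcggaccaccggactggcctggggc
XBP1: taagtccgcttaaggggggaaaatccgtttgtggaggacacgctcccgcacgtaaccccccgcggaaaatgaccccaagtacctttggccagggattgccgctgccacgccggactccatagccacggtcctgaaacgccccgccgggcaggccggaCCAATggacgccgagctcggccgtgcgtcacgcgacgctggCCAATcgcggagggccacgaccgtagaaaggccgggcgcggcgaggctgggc
SEL1L: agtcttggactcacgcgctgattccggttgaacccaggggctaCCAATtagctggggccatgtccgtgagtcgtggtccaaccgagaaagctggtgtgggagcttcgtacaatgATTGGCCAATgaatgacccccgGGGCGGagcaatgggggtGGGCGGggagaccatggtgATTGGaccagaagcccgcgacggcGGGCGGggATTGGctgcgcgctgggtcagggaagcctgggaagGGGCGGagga
MSMO1: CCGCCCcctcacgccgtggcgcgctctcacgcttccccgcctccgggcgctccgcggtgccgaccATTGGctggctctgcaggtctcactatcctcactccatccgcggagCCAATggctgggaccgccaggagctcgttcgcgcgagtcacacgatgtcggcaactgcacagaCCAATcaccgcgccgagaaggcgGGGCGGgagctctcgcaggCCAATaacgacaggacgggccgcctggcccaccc
They lie at chr9:125241344-125241593 (HSPA5, minus strand), chr2:10812786-10813035 (PDIA6, minus), chr22:28800570-28800819 (XBP1, minus), chr14:81533854-81534103 (SEL1L, minus) and chr4:165327419-165327668 (MSMO1, plus). HSPA5 and MSMO1 hold 4 CCAAT boxes each, SEL1L 5, and PDIA6 and XBP1 2 each. PDIA6 also holds 5 GC boxes, and XBP1 holds none. A match is a run of letters and not a measured site.

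The 15 genes with the strongest start regions were not those of the plasma cell lists. LOC124901807 on chromosome 7 came first with folds of 144, 216 and 140, followed by ADAM17, the protease that sheds TNF, with 107, 170 and 119. FAM72C at 122 ± 19.8 and FAM72D and SRGAP2B, which share a region, at 119 ± 15.2 belong to recently duplicated families, so reads can be split between near-identical copies and these values are uncertain. YWHAQ, LOC107986800, FAM86B1, MSMO1, TMEM192, PDCD10 with SERPINI1, ITGB1BP1 with CPSF3, and G3BP1 completed the 15 genes, which fall on 12 different regions. Replicate 2 was the highest library at MSMO1 (89.3, 113 and 85.5) as at most of them. Many lie close together: ADAM17, YWHAQ, ITGB1BP1 and CPSF3 within 9.40 to 9.65 Mb of chromosome 2, and MSMO1 and TMEM192 near 165 Mb of chromosome 4. For LOC107986800 and FAM86B1 both record ends were used, so their regions may lie at the far end of the gene.

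Ranking by relative fold, an ordering added after the data were seen that leaves out the peak-rich bins described below and the genes for which both record ends were used, kept LOC124901807 first, at 12.6 times the local median. CNGA4, a subunit of a cyclic nucleotide-gated channel, followed at 4.74 times. PCNA and CDS2, which share a region, came to 4.13 times the local median, and OARD1 and NFYA, which encodes a subunit of the CCAAT-binding factor NF-Y, to 3.89 times, with folds of 62.6, 66.4 and 55.9 in the 3 libraries. The local medians were 8.12 and 15.9, and a high fold against them is how these genes were chosen. OSBP, MCUR1, SPATC1L, TCAF2 and TMEM60 with PHTF2 were also among the first 15. SRGAP2C and FAM72A with SRGAP2 completed them, and the same caution on copies holds.

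The very strongest regions were distal. None of the strongest 20 regions was at a coding gene start (0 of 20), 17 lay over 10 kb and 10 over 500 kb from one, compared with 8.39% of all regions over 500 kb. The first, chr1:629070-634924, had folds of 4043, 4197 and 4048 and covers RefSeq records of nuclear copies of mitochondrial genes such as MTND1P23 and MTCO1P12. The second, chr17:22520773-22522364, lies by MTRNR2L1 with folds of 1406, 1550 and 1423, and chr5:80650495-80652052 and chr11:10507879-10510339 lie by MTRNR2L2 and MTRNR2L8, with means of 518 ± 49.2 and 421 ± 38.1. Such copies resemble the mitochondrial genome, which is free of nucleosomes and had a fold of 15157 to 16222 in these lists. Whether the reads came from the nuclear copies or from mitochondria cannot be told apart here.

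Among the other named distal regions, chr21:8392322-8472270 and chr21:8202274-8260971, with means of 447 ± 74.8 and 306 ± 52.1, cover records of ribosomal RNA genes. chr3:93470341-93470820 had a mean of 1211 ± 139 and chr4:49708223-49711982 one of 878 ± 93.1, each over 500 kb from a coding start, and chr1:125173947-125184576 one of 558 ± 72.1. Whether reads map to a single place in these regions was not tested, so their values are uncertain. chr5:9997-11816, at the tip of the short arm, ranged from 465 to 993, and replicate 2 alone made the upper value. chr10:133686227-133690463 lies 59.4 kb from FRG2B with a mean of 500 ± 23.3.

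Distal regions of ordinary strength made up most of the map. Over 10 kb from any coding start lay 24350 regions (61.0%), and over 50 kb lay 15409 (38.6%). Of the 27329 regions away from coding starts on chromosomes with listed noncoding starts, 1092 lay within 1 kb of the start of a long noncoding RNA. Regions inside gene records had a median fold of 7.14 and those outside 7.08, against 13.9 at starts. Near the markers, SDC1 had a distal region at chr2:20205439-20210118 of 23.5 ± 2.04 and CD38 one at chr4:15755745-15757276 of 17.4 ± 3.42. B2M had one at chr15:44728252-44730013 of 22.5 ± 2.98, above its own start.

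Regions were then stitched into clusters where they lay close together, with 12499 bp the widest gap joined and 12502 bp the narrowest not joined. This gave 28295 clusters, of which 75.7% were single regions and 425 held at least 5 regions. IRF4 lay in a cluster of 6 regions over 26.9 kb, and JCHAIN and CREB3L2 in clusters of 6 regions each. SDC1, PRDM1 and CD38 lay in clusters of 5 regions over 35.7, 31.4 and 26.4 kb, and 425 of the 28295 clusters held as many. The IRF4 cluster had 16.8 kb of open sequence, a length that 0.396% of clusters reach, and the SDC1 cluster had 20.4 kb, reached by 0.276%. Among clusters with a listed coding start outside peak-rich bins, those with most open sequence (an ordering added after the data were seen) included SMAD7, an inhibitor of TGF-beta signalling, with 7 regions, TNFAIP8 with 7, a histone gene group around H2BC11 with 6, DUSP22 with 9 and a stretch by MCL1, the survival gene, with 5.

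The clusters with most regions lay in a few chromosome segments. The first, chr2:12927738-13444245, held 95 regions over 517 kb with no coding gene, and the next, chr2:12575810-12911808, held 64 regions around TRIB2. Of the 10 clusters with most regions 7 lay between 9 and 14 Mb of chromosome 2, among them that of PDIA6 with 43 regions and that of ITGB1BP1, CPSF3 and IAH1 with 36. The others, on chromosomes 5, 1 and 19, held 58, 50 and 46 regions and no coding gene, and whether reads map to a single place there was not tested. Outside peak-rich bins the largest were a stretch of 32 regions at chr19:27002482-27190230, with no coding gene, and one of 25 at chr8:85714347-85828655. The stretch on chromosome 19 is the part outside such bins of the cluster of 46 regions already counted, and not a separate cluster. The cluster of TRIM7, TRIM41, RACK1 and TRIM52, with 13 regions at chr5:181158931-181262969, was the largest of these that holds several called coding starts.

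The peak-rich bins are the 59 bins of 1 Mb with a mean of at least 60 peaks for each list, and they hold 3358 regions, 8.42% of all. In the stretch of chromosome 2 from 9 to 14 Mb there were 114 regions per Mb, compared with a median of 12 per occupied bin. Its start regions had a median fold of 30.9, and its regions away from starts 4.50. Outside such bins the corresponding medians were 13.9 and 7.26, so that starts were stronger and other regions weaker in the dense stretch. On chromosome 4 from 152 to 171 Mb start regions had a median fold of 33.8 and on chromosome 11 from 86 to 94 Mb 42.9, while on chromosome 1 from 143 to 158 Mb it was 19.8. Not all such stretches had strong starts. The median was 11.2 on chromosome 11 from 65 to 66 Mb and 10.5 on chromosome 19 from 1 to 2 Mb, below the 13.9 outside such bins. Several other stretches held no start region. Of the 100 strongest regions 43 lay in such bins, as did 42 of the 100 genes with the strongest starts, against 2.37% of all called genes. DNA copy number was not measured, and its part in these values was not tested.

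**Figure D5:**
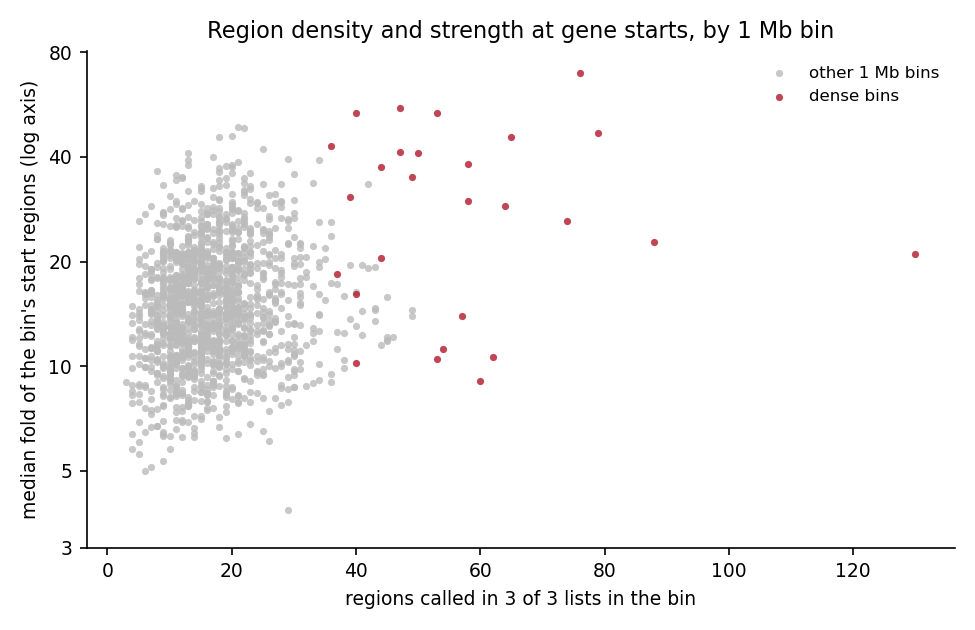
Median fold of start regions (y axis, log scale) against the number of regions called in 3 of 3 lists (x axis) for 1466 bins of 1 Mb with at least 3 start regions. The 27 dense bins (red) have bin medians of 9.05 to 69.9, with a middle value of 29.96, against 14.7 for the other bins (grey).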

How the data were processed

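ATAC-seq peaks of the 3 wild-type ARP1 libraries were used, 1 list for each library. Libraries were sequenced in 150 bp pairs per the labels' protocols. The submitters' processing notes name Trimmomatic, FastQC, MultiQC, Bowtie2, MACS2 2.1.2 and GRCh38; the roles of the tools, duplicate removal and any shift for Tn5 were not given in the sources used here. Duplicates left in would raise the piles, and an unshifted summit would lie a few bases off.

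The deposited lists give, for each peak, the authors' −log10 p-value and −log10 q-value, the authors' fold enrichment over background, and a deposited score, which equals 10 times the −log10 q-value without its decimals. No read count is used, so depth was read from the fold steps, and the peak lists carry no value for closed regions.

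Peaks sharing 1 bp on chromosomes 1 to 22 and X were merged, and regions in 3 of 3 lists were kept and ranked by the mean percentile of the −log10 p-value. Where a list had several peaks in a region the strongest gave its value. A gene start was a start in the RefSeq table of GRCh38.p14 (15812 of 19974 protein-coding genes), with the 5′ end of the record added where no listed start lay within 1 kb of it (1271 genes). For the other 4162 genes both record ends were used, since their strand is not in the tables used here, so a call can lie at a gene's far end. Values are mean ± SD over the 3 lists, with no test, because 1 group has no contrast. Python 3.11.15, pandas 2.3.3 and scipy 1.17.1 were used, and merging, ranking, stitching and start calls were tested on simulated peak lists.

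The members and gene lists were chosen with earlier results of these data known. The genes named by rule are 17 fixed genes, the 15 with the strongest start regions, the strongest 3 of each list, and the called members of lists of other cell types. The regions named by rule are the strongest 10 over 10 kb and 5 over 50 kb from a start, and the 10 clusters with most regions, over the genome and outside dense bins. Further names were chosen after their values were seen. A few genes named by this rule are not reported here. Alternatives covered a stricter q-value, equal list lengths, presence in 2 lists, overlap, window, stitching distance, ranking by fold, autosomes alone and each replicate left out. Start sequences of chromosome 8 are not used here. The knockout libraries were left out because only the wild-type state was described.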

Additional observations from a re-analysis of the deposited data

Results flagged for a closer look

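The mitochondrial chromosome was outside the regions described and carried a peak in every list, with a fold over background of 15475.6 in replicate 1, 15156.6 in replicate 2 and 16221.6 in replicate 3. It was singled out as a signal in data that no comparison used. There is no control library to set it against, and neither the share of mitochondrial reads nor its part in the regions over nuclear mitochondrial copies was tested.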

How the results depend on the processing

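Of 207 values under alternatives 180 stayed within 1.5 times of the reported count or within the spread between libraries, and 27 moved; the cause was not tested unless named. The share of regions at gene starts, 27.97% as reported, was 30.2268% for peaks with a −log10 q-value of at least 5 and 23.2499% for regions in at least 2 of 3 lists. It was 27.324% with a window of 500 bp, 29.3697% with one of 2 kb, 26.7073% with both record ends of every gene and 29.7783% outside dense bins. It ranged from 25.6523% to 26.3568% without 1 replicate, where presence in 2 of 2 lists admits more regions. The share of the strongest 10% at starts, 68.2% as reported, was 64.4433% with both record ends and 64.589% to 68.1723% without 1 replicate. Clusters of at least 5 regions, 425 as reported, numbered 782 for regions in at least 2 lists, 132 and 1032 with stitching at 5 and 25 kb, which by construction join fewer and more regions, and 276 outside dense bins. The CCAAT share of the strongest 10% of called starts, 50.8% as reported, was 55.4068% ranked by relative fold. The settings with both record ends, outside dense bins and by relative fold were chosen after seeing the data. Of 112 counts of called list members 102 stayed within 1.5 times, and the other 10 were in the myeloid, erythroid and epithelial lists, with 0 to 3 called. Of the 15 genes with the strongest starts 13 or 14 recurred without 1 replicate, 15 by fold and 6 outside dense bins. A region missing from a list lay under the peak threshold there and need not be closed. No paired analysis was possible because only 1 group was analysed.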

Other observations

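The most gene-rich stretches without a peak held families of related genes. Over chromosomes 1 to 22 and X, 7064 stretches of more than 100 kb had no peak in any of the 3 lists, and 1377 of them held at least 1 whole protein-coding gene record. The stretch with most genes, chr17:40819199-41341096, was 521.9 kb long and held 39 whole records, all of type I keratins or of the keratin-associated proteins of hair, such as KRT12 and KRTAP1-1. The type II keratins filled another, chr12:52328238-52870388, with 20 records including KRT1 and KRT5, and 20 further keratin-associated genes lay in chr21:30409320-30741916. These proteins build the filaments of epithelia, skin and hair. Odorant receptor genes made up most of the 17 records of chr11:55715689-56152076 and all 16 of chr14:19488172-20305478.

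Other such stretches held families with other roles. In chr1:12746490-13700098 lay 28 records, most of the PRAME family, and chr19:21767689-23686547, 1919 kb long, held 13 zinc finger genes such as ZNF43 and ZNF91. SIGLEC genes, which encode sialic acid receptors of myeloid cells, lay with CD33 among the 16 records of chr19:51109585-51570994. Several of these families consist of near-identical copies, where reads may fail to map to a single place, and the part of mappability was not tested. The stretch around CDKN2C, the cell cycle list member with no peak, was looked up after that value was seen. It ran over chr1:49257884-51100293, 1842 kb with the whole records of CDKN2C, DMRTA2, ELAVL4 and FAF1 and no peak in any library, and whether this DNA is present in the cells was not tested.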
